A study of Macaca mulatta with 5 samples.

Results

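Chromatin loops of intermediate length that pass over a domain boundary were examined in Hi-C maps of cortical neurons from rhesus monkeys (Macaca mulatta) given morphine or saline. A mid-range loop was any called loop whose anchor midpoints lay from 100 kb to under 1000 kb apart. It was counted as crossing when at least 1 domain boundary of its own map lay strictly between those midpoints. By this rule 624 of 13932 called loops were members, 217 of 5507 in the saline map and 407 of 8425 in the morphine map. The remaining mid-range loops, 3157 with saline and 4627 with morphine, did not cross and served as the comparison.

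Topologically associating domains are stretches of chromatin whose loci contact one another more than loci outside. In the loop extrusion model, cohesin draws chromatin into a growing loop until it meets CTCF bound at the loop's future anchor, and the sites where extrusion often stops appear as domain boundaries. A boundary is a partial barrier, so a called loop can have its anchors on opposite sides of it. In neurons, contacts between promoters and distal elements are studied for their part in activity-dependent transcription.

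The animals were male monkeys 3 to 4 years old. The morphine group received subcutaneous morphine, an opioid agonist, 3 times a day for 90 days, starting at 3 and ending at 15 mg/kg. The saline group received saline on the same schedule at 0.5 mL/kg. Each group held 2 monkeys. The series has 3 morphine and 2 saline libraries, so some morphine monkey was the source of more than 1 library.

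Each deposited list names a group and no library and was taken as 1 pooled map, so no difference between the maps has a replicate check and no test between groups was made. Every interval is at the 95% level: Clopper-Pearson (exact) on shares, conditional on ratios of counts, Poisson on contacts, order statistics on medians. None of them includes the variation from monkey to monkey, and neighbouring loops are not independent. Overlap of 2 such intervals does not show that 2 values are equal. Intervals on the enrichment of single loops take the expected contacts as exact, so they are too narrow where few contacts were expected. Contacts summed over all loops came to 119909 (saline) and 239042 (morphine). At matched loops of equal anchor size the median ratio of locally expected contacts, morphine over saline, was 1.70. The depth of single libraries is unknown. Purity of the neurons could not be checked from these files. Positions are given as in the files, counted from 1. The rhesus assembly is not named there (the files hold 20 autosomes and X), so no gene and no sequence was assigned to a loop.

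Crossing was uncommon. Of the mid-range loops, 6.43% crossed a boundary in the saline map (217 of 3374, 5.63 to 7.31) and 8.09% in the morphine map (407 of 5034, 7.35 to 8.87). Nearly every member crossed a single boundary: 3 members in each map crossed 2, and none crossed more. Segments of the same spans laid at every position between the outermost loop anchors of each chromosome would hold a saline boundary at 11.8% and a morphine boundary at 12.5% of positions. The observed shares were 0.543 and 0.646 of those values.

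The gap to the positional share widened with span. From 100 to under 200 kb, 4.60% of saline loops crossed (67 of 1456, 3.58 to 5.81) against 5.93% of positions, and 6.97% of morphine loops (146 of 2094, 5.92 to 8.15) against 6.11% of positions. From 200 to under 400 kb the shares were 7.29% (91 of 1248) and 8.18% (151 of 1845), against 11.8% and 12.2% of positions. From 400 to under 700 kb they were 7.54% (39 of 517) and 9.42% (79 of 839), against 21.8% and 22.2% of positions. In the longest class, 700 to under 1000 kb, 13.1% of saline loops (20 of 153, 8.17 to 19.5) and 12.1% of morphine loops (31 of 256, 8.38 to 16.7) crossed, where 34.8% and 35.6% of positions held a boundary. Long loops thus crossed at about 0.376 and 0.340 of the positional share in the saline and morphine maps, while the shortest class of the morphine map lay at 1.14 times that share, with an interval of the loop share that included it.

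**Figure D1:**
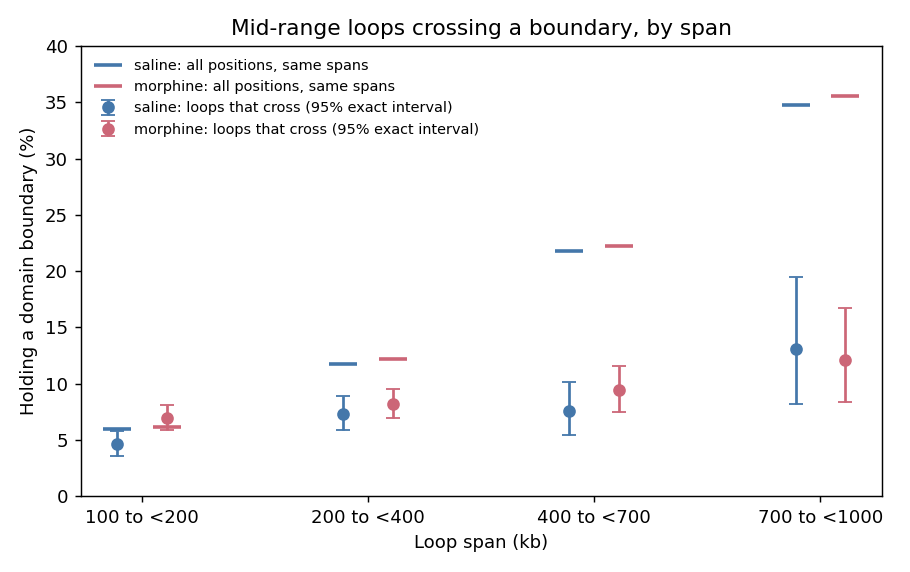
Share of mid-range loops (percent, y axis) that crossed a domain boundary, by loop span (kb, x axis), in the saline (blue) and morphine (red) maps; points are the shares, bars their 95% exact intervals, and horizontal dashes the share of all positions at which a segment of the same span would hold a boundary. The dashes climb from 5.93% and 6.11% to 34.8% and 35.6%, while the points stay at or under 13.1%.

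More crossing loops were called in the morphine map. The ratio of morphine to saline members was 1.88 (1.59 to 2.22), against 1.47 (1.40 to 1.53) for mid-range loops that did not cross. From 100 to under 200 kb the ratios were 2.18 (1.62 to 2.96) for crossing and 1.40 (1.31 to 1.503) for other loops. From 200 to under 400 kb they were 1.66 (1.27 to 2.18) and 1.46 (1.36 to 1.58), and from 400 to under 700 kb 2.03 (1.36 to 3.05) and 1.59 (1.42 to 1.79). At 700 kb or more the order was turned, with 1.55 (0.856 to 2.87) against 1.69 (1.36 to 2.11). Among the span classes, only in the shortest did the intervals of the crossing and the other loops not overlap. Members held 3979 of the saline contacts (3.32%) and 9080 of the morphine contacts (3.80%).

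The crossing share was 1.65 percentage points higher in the morphine map (0.534 to 2.77, normal approximation), and 8.03% of morphine loops would have crossed with the span mix of the saline list. The size of this difference turned on which domains were used. With the saline domains for both loop lists it was 1.51 points (0.399 to 2.63). With the morphine domains for both it was 0.142 points, with an interval from -1.04 to 1.325 that included 0. The same dependence can be read from each list. Saline loops crossed 6.43% of the time over their own boundaries and 7.94% (268 of 3374, 7.05 to 8.91) over those of the morphine map. Morphine loops crossed 8.09% of the time over their own boundaries and 7.95% (400 of 5034, 7.21 to 8.73) over those of the saline map. The lowest of these 4 shares was that of saline loops over saline domains. Its interval overlapped those of both mixed combinations and not that of morphine loops over morphine domains. After morphine contacts were divided by the background factor and loops left with under 8 contacts dropped, the difference was 0.898 points (-0.235 to 2.03). Unequal contacts and treatment cannot be told apart here.

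The boundary between the anchors lay at a median of 0.179 (saline) and 0.205 (morphine) of the span from the nearer anchor. The median distance from the boundary to the nearer anchor was 46.25 kb over 220 crossings in the saline map (quartiles 25 and 85 kb) and 47.5 kb over 410 crossings in the morphine map (quartiles 22.5 and 85 kb). The farther anchor lay a median of 205 kb (saline) and 195 kb (morphine) away. Domains were called in bins of 40 kb, and 41.8% of saline crossings (92 of 220, 35.2 to 48.6) and 43.9% of morphine crossings (180 of 410, 39.0 to 48.9) had the boundary under 40 kb from an anchor. For these loops a boundary drawn 1 bin away could fall outside the loop. At the other end, 36 saline crossings (16.4%) and 76 morphine crossings (18.5%) had 100 kb or more between the boundary and both anchors. The nearer anchor was the one at the lower coordinate in 50.9% of saline crossings (112 of 220, 44.1 to 57.7) and 55.9% of morphine crossings (229 of 410, 50.9 to 60.7).

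**Figure D2:**
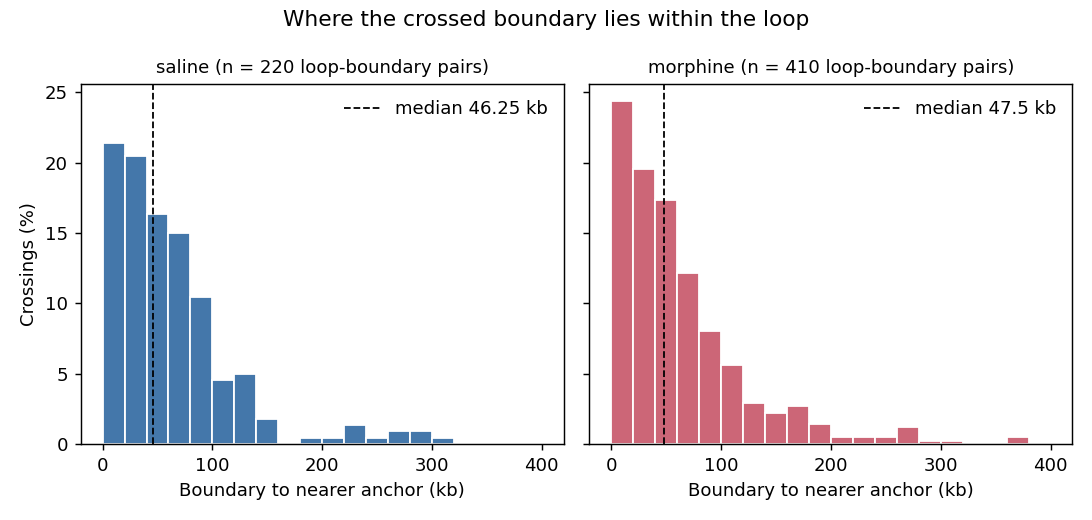
Distance from the crossed boundary to the nearer loop anchor (kb, x axis, bins of 20 kb) as a percent of all crossings (y axis) in the saline map (220 crossings) and the morphine map (410 crossings); the dashed lines are the medians of 46.25 and 47.5 kb. At or under 20 kb lie 21.4% of saline and 24.4% of morphine crossings, and both distributions thin out beyond 100 kb. The distance to the nearer anchor is limited by the loop span, so the measure itself favours short values. No reference with evenly placed boundaries was made.

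Anchors of all mid-range loops were also set against boundaries. Within 20 kb of a boundary lay 1.63% of saline mid-range anchors (1.33 to 1.963) and 2.26% of morphine mid-range anchors (1.97 to 2.58), where 1.75% and 1.82% of all positions inside the listed domains lay. From 20 to under 60 kb the anchors made up 3.25% (2.83 to 3.71) and 3.83% (3.46 to 4.24), against 3.50% and 3.64% of positions. The morphine anchors nearest to boundaries were therefore slightly above their positional share, and the saline anchors had an interval that included theirs.

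A minority of boundaries was crossed, and more of them in the morphine map. Of the interior boundaries, 15.5% were crossed in the saline map (183 of 1177, 13.5 to 17.7) and 24.4% in the morphine map (298 of 1223, 22.0 to 26.9). This share also moves with how many loops were called. It was 20.3% in the morphine map after the scaling of contacts described above. Boundaries passed by 2 or more loops numbered 31 of 183 in the saline and 86 of 298 in the morphine map. The most loops over a single boundary, with no limit set on FDR, were 3 in the saline and 5 in the morphine map.

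Median scores of crossed and other boundaries had overlapping intervals in both maps. The boundary score of the deposited domain lists, whose scale is not stated, had a median of 0.676 (0.633 to 0.727) at crossed and 0.689 (0.653 to 0.719) at other saline boundaries. In the morphine map the medians were 0.622 (0.581 to 0.678) and 0.671 (0.644 to 0.699). The saline difference between crossed and other boundaries had no steady sign: it was -0.0132 here, 0.0195 with boundaries 40 kb or more from both anchors and 0.00335 without chromosomes 10, 16, 19 and 20. In the lowest of 4 equal groups by score, 16.3% of saline boundaries (12.2 to 21.0) and 29.7% of morphine boundaries (24.7 to 35.2) were crossed. In the highest the shares were 12.6% (9.02 to 16.9) and 19.9% (15.6 to 24.9). The intervals of lowest and highest overlapped in both maps, in the morphine map only from 24.7 to 24.9. The difference between lowest and highest was not tested. A boundary of the other map lay within 40 kb for 58.5% of crossed saline boundaries (107 of 183, 51.0 to 65.7) and 52.7% of uncrossed ones (49.6 to 55.9). The morphine shares were 56.0% (167 of 298, 50.2 to 61.8) and 50.2% (46.9 to 53.4). In each map the 2 intervals overlapped. Among boundaries with such a counterpart, crossed morphine boundaries had a median score of 0.701 and uncrossed ones 0.771. Without a counterpart the morphine medians were 0.530 and 0.598, so the crossed median was the lower in both sets. The saline medians were 0.701 and 0.780 with a counterpart and 0.642 and 0.594 without. The intervals of crossed and uncrossed boundaries overlapped in each set.

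**Figure D3:**
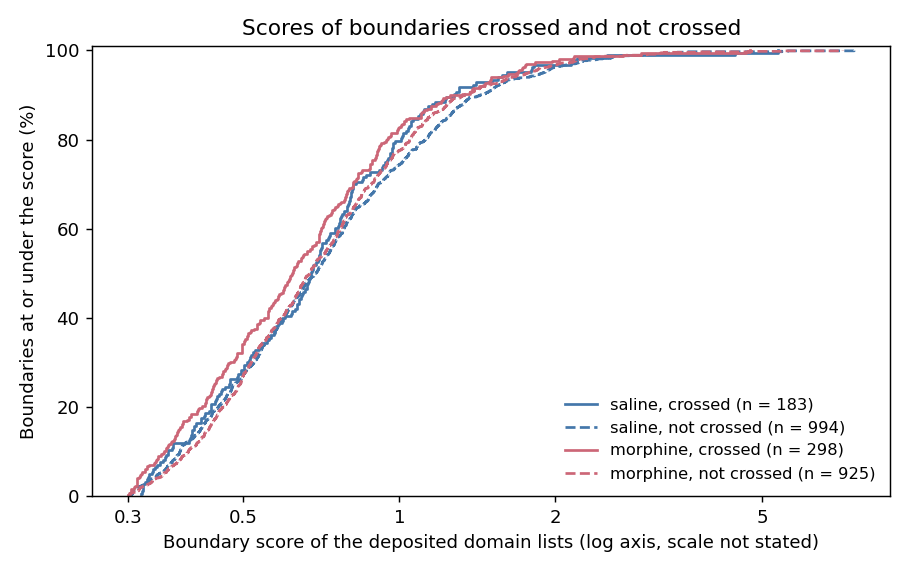
Cumulative percent of boundaries (y axis) at or under each boundary score (x axis, log axis, scale not stated by the depositors) for crossed (solid) and uncrossed (dashed) boundaries of the saline (blue) and morphine (red) maps. The 4 curves run close together, with medians of 0.676 and 0.689 in the saline map and 0.622 and 0.671 in the morphine map.

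Some of the strongest boundaries were also crossed. The highest score of a crossed saline boundary, 5.36, lay on chromosome 10 at 58960001 to 59000000. Of the 2 saline loops over it, the one with the more contacts joined 58900001 to 58905000 and 59050001 to 59055000, with 18 contacts against 0.502 expected (35.9-fold, 21.3 to 56.7), and the other had 17 contacts (49.7-fold). The morphine map had the same boundary with a score of 4.65. There the loop with the more contacts of the 2 over it joined 58845001 to 58850000 and 59065001 to 59070000, with 34 contacts against 1.30 expected (26.2-fold, 18.2 to 36.6). The other joined 58895001 to 58900000 and 59055001 to 59060000, with 30 contacts against 0.281 expected (107-fold, 71.9 to 152), the highest enrichment of the morphine members with 20 or more contacts. A boundary of very high score thus had 2 loops over it in each map. The reference sequence at this and other places of very high enrichment was not examined, since no genome of the assembly was used here, so whether the assembly bears on these scores and folds was not tested.

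The highest score of a crossed morphine boundary, 4.73, was on chromosome 3 at 123320001 to 123360000, and the saline map had it in the same bin with 4.44. The morphine loop joined 123335001 to 123340000 and 123500001 to 123505000 with 26 contacts (4.59-fold, 3.00 to 6.73), and the saline loop joined 123330001 to 123340000 and 123500001 to 123510000 with 24 contacts (3.66-fold, 2.35 to 5.45). The nearer anchor lay 2.5 kb from the middle of the boundary bin in the morphine map and 5 kb in the saline map, so the loop began at the boundary itself. On chromosome 19 a loop over boundaries 1 bin apart, of score 2.52 in the saline and 2.17 in the morphine map, spanned 630 kb in the first and 635 kb in the other, from an anchor that began at 22910001. It held 18 contacts in the saline map (18.9-fold) and 28 in the morphine map (47.1-fold), with the boundary more than 200 kb from either anchor.

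The boundary with the most loops over it in the morphine map was on chromosome 19. It lay at 33680001 to 33720000, with a score of 0.731, and 5 loops ran over it from anchors that ended at 33700000. They reached anchors that began at 33790001, 33855001, 33930001, 34065001 and 34100001, and held from 18 to 60 contacts at 2.94-fold to 4.08-fold enrichment. The largest of the 4 deposited FDR values was 0.458 and 0.466 for the loops to 34065001 and 34100001, and 0.0390 or less for the rest. The saline boundary was 1 bin on, at 33720001 to 33760000, with a score of 0.780, and was among the 6 with 3 loops. Here 3 loops from the anchor at 33690001 to 33700000 crossed it, with 18 to 26 contacts at 4.79-fold to 5.72-fold enrichment and a largest FDR of 0.0215 or less. The loops over this boundary fanned out from a common anchor and are not independent of one another. Of the 5 morphine boundaries with 4 loops, 2 were on chromosome 20 and are named here, at 29520001 to 29560000 (score 1.502) and at 36120001 to 36160000 (score 0.933). Among the loops over them the largest FDR went up to 0.469 and 0.115, in that order. Over the latter, 3 of the 4 loops shared an anchor that began at 36110001, and they reached 695 to 860 kb away.

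Members that crossed 2 boundaries held a whole domain between their anchors. The saline loop from 128520001 to 129210000 on chromosome 4 had 10 contacts (6.69-fold, 3.21 to 12.3), and the stronger of its boundaries adjoined a domain of 0.48 Mb. The morphine loop from 54860001 to 55390000 on chromosome 10 had 31 contacts (2.84-fold, 1.93 to 4.02) and adjoined a domain of 0.32 Mb. A morphine loop from 61710001 to 61910000 on chromosome 16, 190 kb long, adjoined a domain of a single bin, 0.04 Mb. The last held 37 contacts (2.77-fold, 1.95 to 3.82). The saline loops over 2 boundaries had 10 to 12 contacts and wide intervals.

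Crossing loops stood out from a lower background than other mid-range loops. Enrichment, the observed contacts over those expected from the donut-shaped surroundings, had a median of 6.25-fold (5.75 to 6.75) for saline members and 5.19-fold (5.09 to 5.33) for saline mid-range loops that did not cross. In the morphine map the medians were 5.00-fold (4.67 to 5.33) and 4.31-fold (4.23 to 4.39). The observed contacts were the fewer among members, with a median of 16 against 18 in the saline map and 19 against 22 in the morphine map. The expected contacts were lower by more in proportion, 2.44 against 3.53 and 3.62 against 5.01. Every called loop held at least 8 contacts, so few expected contacts set a higher floor for the ratio. Members and other loops were not compared at equal expected contacts. Crossing loops were also longer, with median spans of 270 against 220 kb and 250 against 225 kb, and enrichment rose with span.

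Within span classes the ratio of the median enrichments stayed above 1, at 1.11, 1.13, 1.12 and 1.20 in the saline map from the shortest class to the longest. In the morphine map it was 1.08, 1.07, 1.12 and 1.54 in the same order. In each saline class the intervals of both medians overlapped except from 200 to under 400 kb, with 6.04-fold (5.66 to 6.64) against 5.37-fold (5.17 to 5.53). In the morphine map they did not overlap at 400 to under 700 kb, with 5.54-fold (5.16 to 6.96) against 4.93-fold (4.73 to 5.14), or at 700 kb or more, with 8.43-fold (5.89 to 11.9) against 5.47-fold (5.04 to 5.72). The direction also held with the lower-left, horizontal and vertical backgrounds over all members. Against the horizontal background the medians were 5.32-fold and 4.38-fold in the saline map and 4.46-fold and 3.71-fold in the morphine map.

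Very high enrichment was more frequent among members. At 20-fold or more, a limit chosen after the values were seen, lay 8.76% of saline members (19 of 217, 5.35 to 13.3) and 1.49% of other saline mid-range loops (47 of 3157, 1.10 to 1.97). In the morphine map the shares were 6.88% (28 of 407, 4.62 to 9.79) and 1.04% (48 of 4627, 0.766 to 1.37). From 400 to under 700 kb alone they were 17.9% (7 of 39, 7.54 to 33.5) and 3.14% (1.77 to 5.12) in the saline map, and 11.4% (9 of 79, 5.34 to 20.5) and 2.11% (1.21 to 3.40) in the morphine map. Their median was 17 contacts in each map, against a median expectation of 0.333 in the saline and 0.496 in the morphine map, where the other members had 2.67 and 3.92.

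The boundaries under the very enriched members had a median score of 0.914 in the saline map (16 boundaries) and 0.814 in the morphine map (25 boundaries), against 0.673 and 0.616 for boundaries under the other members. These medians have no intervals and rest on few boundaries, and the difference was not tested. The boundaries under the very enriched members also lay farther from the nearer anchor in kb, with medians of 75 and 86.25 kb against 45 kb in both maps for the rest. These loops were longer, with median spans of 420 kb (saline) and 450 kb (morphine), against 270 and 250 kb for all members. Whether the boundaries lay farther inside as a share of the span was not tested. All 19 such saline members had a morphine loop within 10 kb, and 18 of the 28 morphine ones had a saline loop. Of all members, 66.8% (saline) and 40.3% (morphine) were matched. The match share of loops of 20-fold or more that did not cross was not computed. Of the very enriched members, 8 of the 19 saline and 6 of the 28 morphine ones were single pixels. Among all members the shares were 22.6% (saline) and 17.7% (morphine). Without loops of 20-fold or more, the ratio of median enrichment between crossing and other mid-range loops was 1.16 (1.05 to 1.27) in the saline and 1.10 (1.03 to 1.21) in the morphine map.

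The most enriched members with 20 or more contacts include the 107-fold morphine loop over the strong boundary of chromosome 10 described above. On the same chromosome the loop between 64750001 to 64755000 and 65260001 to 65265000 had 20 contacts against 0.182 expected in the saline map (110-fold, 67.0 to 169) and 40 against 0.602 in the morphine map (66.4-fold, 47.5 to 90.5). It crossed a boundary at 65160001 to 65200000 that both maps placed in the same bin, with scores of 0.633 and 0.650. A longer morphine loop over the same boundary, from 64690001 to 65480000, had 36 contacts (82.7-fold, 57.9 to 114). On chromosome 9 the saline loop between 27270001 to 27275000 and 27690001 to 27695000 had 21 contacts against 0.207 expected (101.4-fold, 62.7 to 155). The saline loops at 110-fold and 101.4-fold were each a single pixel. On chromosome 19 the morphine loop between 14365001 to 14370000 and 14820001 to 14825000 had 21 contacts against 0.351 (59.8-fold, 37.0 to 91.3) and no saline counterpart. The highest ratio of all members, on chromosome 3 from 43200001 to 44110000 in the morphine map, rested on 17 contacts over an expectation of 0.00892, which is too small for the ratio to be read as a size. That loop crossed a boundary of score 2.92.

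Crossing loops were spread over all 21 chromosomes, from 2 members on chromosome 18 to 24 on chromosome 3 in the saline map, and from 3 on chromosome 18 to 39 on chromosome 1 in the morphine map. The crossing share was higher in the morphine map on 16 chromosomes and lower on 5. On chromosome 16 it was 4.55% (7 of 154, 1.85 to 9.14) in the saline and 9.03% (26 of 288, 5.98 to 12.9) in the morphine map. On chromosome 5, where fewer mid-range loops were called in the morphine map, it was 6.80% (10 of 147) and 12.4% (16 of 129). The reverse held on chromosome 3, with 10.7% (24 of 225, 6.95 to 15.5) in the saline and 6.84% (21 of 307, 4.28 to 10.3) in the morphine map. On every chromosome the 2 intervals overlapped.

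By ratio, the number of members differed most on chromosomes 15 (3 to 12), 16, 12 (3 to 11), 19 and 20, the smaller counts with wide intervals. Chromosomes 10, 16, 19 and 20, where expected contacts at matched loops were 2.57, 2.34, 2.96 and 2.42 times as high in the morphine map, the highest of all chromosomes, held 34 saline and 112 morphine members (ratio 3.29, 2.23 to 4.99). The other 17 chromosomes held 183 and 295 (ratio 1.61, 1.34 to 1.95). On those 4 chromosomes 6.26% of saline and 9.64% of morphine mid-range loops crossed, and elsewhere 6.46% and 7.62%. Without them the difference in crossing share was 1.15 points, with an interval from -0.0777 to 2.39. The part of the background contacts in this result was not tested.

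**Figure D4:**
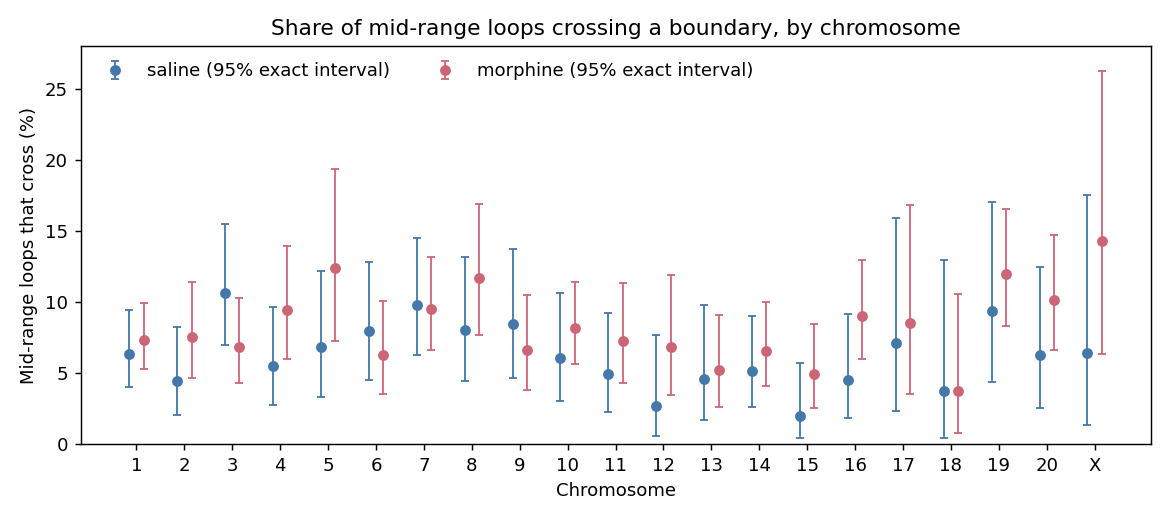
Share of mid-range loops (percent, y axis) that crossed a boundary on each chromosome (x axis) in the saline (blue) and morphine (red) maps, with 95% exact intervals. The morphine share is the higher on 16 of 21 chromosomes, chromosome 3 runs the other way with 10.7% and 6.84%, and the intervals overlap on every chromosome.

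More of the saline than of the morphine members had a counterpart in the other map, as for loops in general. Loops were matched where both anchors overlapped after an extension of 10 kb. Of the saline members, 66.8% had a morphine loop (145 of 217, 60.1 to 73.0), against 62.4% of all saline loops and 64.0% of mid-range loops that did not cross. Of the morphine members, 40.3% had a saline loop (164 of 407, 35.5 to 45.2), against 40.8% of all morphine loops and 43.4% of mid-range loops that did not cross. The shares were near those of loops in general. The saline share depended on the matching. It was 33.6% with no extension, and the morphine share was then 20.4%. With both lists held to 10 kb anchors the shares were 31.1% (saline) and 24% (morphine), and with both held to 5 kb anchors 77.4% and 28.03%. Counterparts of the other anchor size were left out there, so these values are not the match shares of members by anchor size. Matched members were the more enriched, with medians of 6.85-fold against 5.44-fold for unmatched ones in the saline map and 6.55-fold against 4.29-fold in the morphine map. The match rate was similar over boundaries common to the maps and over others: 67.7% of saline members over a boundary found in both maps were matched (88 of 130), and 65.5% of those over other boundaries (57 of 87). The corresponding morphine shares were 38.7% (91 of 235) and 42.4% (73 of 172).

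A loop found in both maps often crossed a boundary in 1 map alone. Among reciprocal nearest matches, 90 pairs crossed in both maps, 55 in the saline map only and 73 in the morphine map only. Of the 90, 35 passed over a boundary in the same bin, 38 over boundaries 1 bin apart and 17 over boundaries farther apart. Where the pair crossed in a single map, the crossed boundary lay a median of 35.0 kb (saline only) and 32.5 kb (morphine only) from the nearer anchor. The other map had a boundary within 40 kb of it, but not between the anchors, for 15 of the 55 saline-only and 18 of the 73 morphine-only pairs (of the latter, 2 had partners outside the span limits and 1 of these crossed). It had its nearest boundary over 40 and up to 120 kb away for 18 and 16 pairs, and over 120 kb away for 22 and 39 pairs. The crossed boundaries of the last kind were weak, with median scores of 0.503 in the saline and 0.410 in the morphine map, and the lists hold no score under 0.3002. For pairs of the first kind a shift of the boundary by 1 bin was enough to change the class of the loop.

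Enrichment at matched members was lower in the morphine map, as it was at matched loops in general. The median ratio of morphine to saline enrichment was 0.879 (0.824 to 0.955) over 218 pairs that crossed in at least 1 map, 0.898 (0.879 to 0.917) over 1919 mid-range pairs that crossed in neither, and 0.894 over all 3420 matched pairs. It was lower in the morphine map for 133 of the 218 pairs (61.0%), against 60.9% of all pairs. By a change of 1.5-fold or more, 55 of the 218 were lower and 31 higher, 25.2% and 14.2%, against 20.9% and 9.71% of all pairs. By crossing class the median ratio was 0.909 (0.822 to 0.987) for pairs that crossed in both maps, 0.935 (0.745 to 1.01) for saline only and 0.832 (0.750 to 1.02) for morphine only. These intervals overlapped.

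The median background ratios of these classes were farther apart, but they rest on fewer pairs and have no intervals. The chromosomes of the pairs in each class were not compared. At matched loops of equal anchor size, the ratio of expected contacts was 1.92 for pairs that crossed in both maps (52 pairs), 1.42 for saline only (40 pairs) and 1.18 for morphine only (52 pairs), against 1.61 for mid-range pairs that crossed in neither. Observed contacts had median ratios of 1.54, 1.27 and 1.05 in the same classes and 1.38 in the last.

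**Figure D5:**
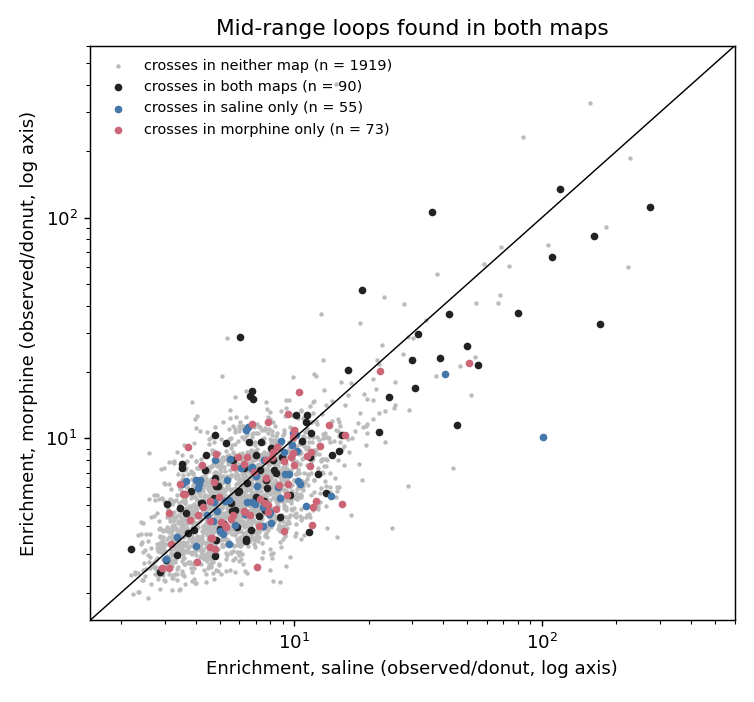
Enrichment (observed over donut-expected contacts, log axes) of mid-range loops found in both maps, saline on the x axis and morphine on the y axis, for pairs that crossed in both maps (black, 90), in the saline map only (blue, 55), in the morphine map only (red, 73) and in neither (grey, 1919); the line marks equal values. Most points of every class lie near or below the line, and among pairs of 20-fold or more in both maps 13 crossed in both and 24 in neither.

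Named pairs show both situations. The crossing pair with the most contacts lay on chromosome 13 between 103305001 to 103310000 and 103620001 to 103625000, at identical anchors in both maps. It held 34 contacts against 1.40 expected in the saline map (24.2-fold, 16.8 to 33.8) and 105 against 6.85 in the morphine map (15.3-fold, 12.5 to 18.6). Both maps had a boundary at 103560001 to 103600000, with scores of 1.80 and 1.97. On chromosome 8 the loop between 18650001 to 18660000 and 19060001 to 19070000 had 43 contacts in the saline map (8.92-fold, 6.45 to 12.0) and 66 in the morphine map (8.22-fold, 6.36 to 10.5), over weak boundaries 1 bin apart with scores of 0.402 and 0.436. On chromosome 20 the loop between 29490001 to 29495000 and 29615001 to 29620000 had 19 contacts in the saline map (16.5-fold, 9.96 to 25.8) and 49 in the morphine map (20.4-fold, 15.1 to 26.9), over a boundary at 29520001 to 29560000 of score 1.80 and 1.502. The enrichment intervals of the maps overlapped at each of these loops.

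Among pairs that crossed in a single map, the one with the most contacts was on chromosome 19, between 38440001 to 38450000 and 38540001 to 38550000. It had 228 contacts in the saline map against 56.7 expected (4.02-fold, 3.52 to 4.58) and 635 in the morphine map against 195 (3.26-fold, 3.01 to 3.52). The saline boundary under it, at 38440001 to 38480000 with a score of 0.629, lay 15.0 kb from the anchor, and the morphine map had its boundary 1 bin away and outside the loop. On chromosome 20 the loop between 50660001 to 50670000 and 50840001 to 50850000 crossed in the morphine map only, over a boundary of score 1.37, with 99 contacts (4.33-fold, 3.52 to 5.28) against 37 in the saline map (5.56-fold, 3.92 to 7.67); here too the saline boundary was 1 bin away. On chromosome 12 a loop of 350 kb had 54 contacts in the saline map (12.7-fold, 9.57 to 16.6) and 46 in the morphine map (9.27-fold, 6.79 to 12.4). Only the morphine map had a boundary there, at 35440001 to 35480000, with a score of 0.326 and no saline boundary nearer than 560 kb. Its middle lay 5 kb from the midpoint of the morphine anchor. That anchor began at 35450001 and the saline one at 35460001, so the middle of the boundary lay outside the saline loop.

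Members without a counterpart numbered 72 in the saline and 243 in the morphine map. In the other map a boundary lay between their anchor positions for 47 of the 72 and 174 of the 243 (65.3% and 71.6%). Among all members, matched or not, these shares were 63.6% (saline) and 65.4% (morphine). For the rest, 25 saline and 69 morphine members, neither the loop nor a boundary in its place was called in the other map.

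Few members were in the authors' deposited lists of differential loops, 5 on the saline and 27 on the morphine side. They made up 2.30% of saline members (0.752 to 5.29) against 3.69% of all saline loops, and 6.63% of morphine members (4.42 to 9.51) against 7.09% of all morphine loops. These shares were near the background of the lists. The ratio of the sides was 5.4 (2.05 to 17.96) for members and 3.01 (2.36 to 3.87) for other mid-range loops, with overlapping intervals. All 5 saline and 27 morphine loops lacked a counterpart within 10 kb. That share was not computed over the whole differential lists, so it is not shown to be particular to members. No source used here states how the authors chose the lists. Differential members had median spans of 170 kb on the saline and 300 kb on the morphine side.

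The most enriched differential member of the saline side lay on chromosome X, from 12890001 to 13250000, with 16 contacts (9.01-fold, 5.15 to 14.6). Its boundary had a score of 0.320 and its nearest morphine boundary was 1280 kb away. On the morphine side the most enriched lay on chromosome 9, from 93300001 to 94030000, with 11 contacts (10.04-fold, 5.01 to 17.97) over a boundary of score 0.900. The best filled of the 5 highest on that side, on chromosome 5 from 12180001 to 12880000, had 22 contacts (6.96-fold, 4.36 to 10.5) over a boundary of score 0.517. On chromosome 1 a morphine loop from 114830001 to 115800000 had 14 contacts (8.05-fold, 4.4 to 13.5) over a boundary of score 0.363 that lay 1120 kb from the nearest saline boundary. Each of these rested on few contacts.

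The share of members that shared an anchor with another loop was below that of mid-range loops that did not cross, in both maps. It was near that of loops of all spans, of which 36.7% (saline) and 47.8% (morphine) shared one. In the saline map 35.9% of members (78 of 217, 29.6 to 42.7) overlapped an anchor of another loop, against 42.1% (40.3 to 43.8) of the loops that did not cross. With morphine they were 47.2% (192 of 407, 42.2 to 52.2) and 53.7% (52.2 to 55.1). The intervals overlapped in the saline map and just missed each other in the morphine map. A shared anchor with a loop that did not cross was found for 55 saline and 129 morphine members. Members made of a single pixel were 22.6% (17.2 to 28.7) in the saline and 17.7% (14.1 to 21.8) in the morphine map, against 18.5% and 13.5% of the other mid-range loops. The largest of the 4 FDR values did not exceed 0.1 in 77.9% of saline members (71.8 to 83.2) and 74.7% of morphine members (70.2 to 78.8), against 74.6% and 72.0%.

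The longest crossing loops left out at the lower limit spanned 95 kb, with 29 contacts on chromosome 16 in the saline map (10.1-fold) and 19 on chromosome 1 in the morphine map (3.49-fold). Just inside, at 100 kb, stood the saline loop on chromosome 19 with 228 contacts and a morphine loop on chromosome 16 from 31230001 to 31340000 with 67 (3.40-fold). At the upper limit the last members spanned 990 kb in the saline map, with 12 contacts (4.53-fold), and 980 kb in the morphine map, with 17 contacts on chromosome 7 (111-fold). The first loops beyond it spanned 1020 kb (12 contacts, 8.24-fold) and 1000 kb (11 contacts, 3.58-fold). Outside the limits, 2.68% of saline and 2.77% of morphine loops under 100 kb crossed a boundary, and 17.2% (11.6 to 24.03) and 24.5% (19.3 to 30.3) of those of 1 Mb or more.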

How the data were processed

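Hi-C loop and domain lists of 2 groups were used, 1 list per group, without values for single libraries. The deposited observed values are counts of contacts in a loop pixel, and the deposited expected contacts are estimates from 4 local backgrounds, per the file headers, which have the column layout of HiCCUPS. The deposited FDR columns (a p-value type) and the boundary score were used as given by the authors. No source used here states the aligner, the domain caller or the pooling. Among genome builds the submitters' processing notes list only hg19, a human build, while the files hold 20 autosomes and X. A boundary was the middle of the 40 kb gap between adjacent domains (80 kb for 2 saline and 3 morphine gaps). Loops were matched after an extension of 10 kb, by nearest midpoints. Crossing and matching were checked on simulated loops built by the same rules. This checks the calculation and not how well the rules hold in the deposited lists. Loops are named by rules on enrichment (with 20 or more contacts), boundary score, boundaries crossed, differential lists, matched contacts, loops per boundary and the span limits. The members, lists and rules were chosen with earlier results of these data known. Python 3.11.15, pandas 2.3.3, NumPy 2.4.6 and SciPy 1.17.1 were used.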

Additional observations from a re-analysis of the deposited data

How the results depend on the processing

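No paired analysis was possible because each list pools its group and holds no value of a single library, so no replicate block could be fitted and no replicate left out. Over 16 results and 219 alternatives, 170 values stayed within the interval of the value reported (counts within 1.5 times), 47 did not and 2 changed sign. The cause of these shifts was not tested.

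With the boundary required to lie 40 kb or more from both anchors, 127 saline and 229 morphine members were left, the crossing shares were 3.76% and 4.55%, 9.35% and 14.9% of boundaries were crossed, the ratio of median enrichment in the morphine map was 1.28, and the saline difference in boundary score turned to 0.0195. With the whole gap between the anchors, the shares were 5.10% and 6.14% and 12.5% and 19.4% of boundaries were crossed. With boundaries of score 0.5 or more the shares were 4.65% and 5.403%. With the morphine domains for both lists the saline share was 7.94%, the difference 0.142 points, 18.5% of boundaries were crossed by saline loops and 59.3% of these loops were matched. From 200 kb, the shares were 7.82% and 8.88%, with 261 morphine members, 10.9% and 16.8% of boundaries crossed and 0.667% of saline members in the differential list. With all 4 FDR values at most 0.1, 12.2% and 20.1% of boundaries were crossed and 3.62% of morphine members were differential.

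With 5 kb anchors alone there were 53 saline and 157 morphine members, a saline share of 5.14%, 4.16% and 11.1% of boundaries crossed, 77.4% and 28.03% matched, a ratio of median enrichment of 1.27 in the morphine map and a median pair ratio of 0.766. The saline differential share was then 0% (0 of 53, which allows up to 5.66%). With 10 kb anchors alone there were 250 morphine members, 12.1% and 17.0% of boundaries were crossed, and 31.1% and 24% were matched. In the 5 kb and 10 kb settings alike, both lists were held to that anchor size, so counterparts of the other size did not count. Without extension of the anchors 33.6% and 20.4% were matched. Without chromosomes 10, 16, 19 and 20, 21.2% of morphine boundaries were crossed and the saline score difference was 0.00335. With scaled morphine contacts the morphine share was 7.33%, 20.3% of its boundaries were crossed and 51.2% of saline members were matched. The difference in crossing share had an interval that included 0 under 6 of 14 alternatives. Leaving out loops of 20-fold or more, chosen after seeing the data, moved none of the 16 results beyond its interval. With the lower-left background, enrichment left its interval at 12 of 88 named loops.

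Pooled lists, 40 kb domain bins and few contacts per loop limit every comparison here.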
